A study of Danio rerio with 2 samples.

Results

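The miR-19 seed family comprised miR-19a, miR-19b, miR-19c and miR-19d, which are 4 of the 173 miRNA entries listed in the small RNA libraries of zebrafish embryos. Members were chosen by name: the locus number was dropped from each entry, and the entries mir-19a, mir-19b, mir-19c and mir-19d were kept. All 4 members had an entry of their own with 1 locus each, and all 4 were listed above 0 in both libraries. The series holds a library of Tbx5 morphants and a library of embryos that received MO-Ct, all of the AB strain and collected at 48 hours post fertilization (hpf). Embryos were injected at the 1-cell stage with morpholinos, antisense oligomers that block the transcript they bind, and RNA came from a pool of 50 embryos. The sample labels name MO-Tbx5a at 1.5 ng for the morphants and 1.5 ng of MO-Ct for the controls, while the methods of the study also name MO-Tbx5b for the morphants and a selection of embryos with the heartstring (hts) phenotype. Knockdown by a morpholino is transient and can be partial, and the Tbx5 transcripts themselves cannot be read from small RNA libraries, so the labels could not be checked on the targeted gene.

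miRNAs guide Argonaute proteins to target mRNAs, and the seed near the 5′ end of a miRNA sets most of its targets, so members of a seed family are expected to share targets. The miR-19 seed differs from those of the miR-17, miR-18 and miR-92 families with which it is co-transcribed in polycistronic clusters. In the mouse, miR-19 is known as the main oncogenic component of the miR-17-92 cluster, and loss of that cluster impairs heart and lung development. In the RefSeq annotation of the zebrafish genome all 4 members matched 1 gene each, and they were spread over 3 clusters. miR-19a and miR-19b lie in the miR-17-92 cluster, on either side of miR-20a and flanked by miR-18a and miR-92a-1, within an uncharacterised lncRNA. miR-19c lies between miR-363 and miR-20b, followed by miR-18c in order of coordinate, in a cluster between the coding genes gpc3 and ccdc160. miR-19d lies between miR-25 and miR-93 within mcm7, which encodes a subunit of the replicative helicase. In each of the 3 clusters 0 other genes start between the miRNAs.

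Levels are given as rpm, the normalised read count, which is the number of reads of a miRNA scaled to a common total of reads assigned to the listed miRNAs in each library. The values were whole multiples of 1 read, and added up to 580312 reads in the Tbx5 morphants and 1150157 reads in the controls. The MO-Ct library was thus 1.98 times as deep, and 1 read was worth 1.72 rpm in the morphant and 0.869 rpm in the MO-Ct library. With 1 library per condition there is no replicate check of any difference below, and no test between the conditions was made. Intervals are 95% intervals of counting error only, so they set these libraries against each other and say nothing of the spread between embryos. They treat each read as independent, but PCR copies are not independent molecules, so the intervals can be too narrow even for that error. Both libraries hold RNA of whole embryos, in which the neural miR-9 and the muscle miR-206 were the most abundant entries of the MO-Ct library, at 210670 and 143278 rpm. The 3 most abundant miRNAs, miR-9, miR-206 and miR-21, took 49.4% of the reads of the morphant library and 44.2% of the MO-Ct library. Of these, miR-21 differed the most, with 148003 rpm in the morphant library against 88456 rpm in the MO-Ct library. In the morphant library miR-206 had 154331 rpm, and miR-9, which was lower there, had 191730 rpm. As rpm are shares of a fixed sum, more of any abundant miRNA leaves less for all others. Fewer cells that express a miRNA and less of it per cell cannot be told apart in pooled embryos.

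The miR-19 family was lower in the Tbx5 morphant library, and so was each of its members. The family total was 2102 rpm (95% interval 1986 to 2224) in the Tbx5 morphant library, from 1220 reads. In the MO-Ct library it was 3353 rpm (3248 to 3461), from 3857 reads. The fold change (FC), the rpm of the morphant library divided by that of the MO-Ct library, was 0.627 (0.587 to 0.669) for the family. The family took 0.210% of all assigned reads in the morphants and 0.335% in the controls, so it was a minor fraction of the embryonic miRNAs in both.

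miR-19b, the second miR-19 of the miR-17-92 cluster, was the most abundant member. It had 1027 rpm (95% interval 946 to 1113) in the morphant library, from 596 reads, and 1644 rpm (1571 to 1720) in the MO-Ct library, from 1891 reads. Its FC was 0.625 (0.569 to 0.685), close to that of the family it dominates. miR-19c, the member beside miR-363, had 582 rpm (522 to 648) from 338 reads against 799 rpm (748 to 852) from 919 reads. Its FC of 0.729 (0.642 to 0.827) was the nearest to 1 of the 4 members. The study co-injected mimics of miR-19a and of miR-19b with MO-Tbx5a, and of these only miR-19a reduced the morphant defects. In the libraries miR-19a had 339 rpm (294 to 390) from 197 reads against 658 rpm (612 to 707) from 757 reads. Its FC of 0.516 (0.439 to 0.604) was the lowest of the 4. miR-19d, the member within mcm7, was the least abundant, with 153 rpm (123 to 189) from 89 reads against 252 rpm (224 to 283) from 290 reads. Its FC was 0.608 (0.474 to 0.774), with the widest interval of the 4, as it rested on the fewest reads. The interval of each level in the morphant library lay below that of the same member in the MO-Ct library. Lower levels were common, as 53.4% of the 116 miRNAs above 200 rpm in the MO-Ct library had a FC interval below 1. The share of all miRNAs whose levels separate in this way was not counted.

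**Figure D1:**
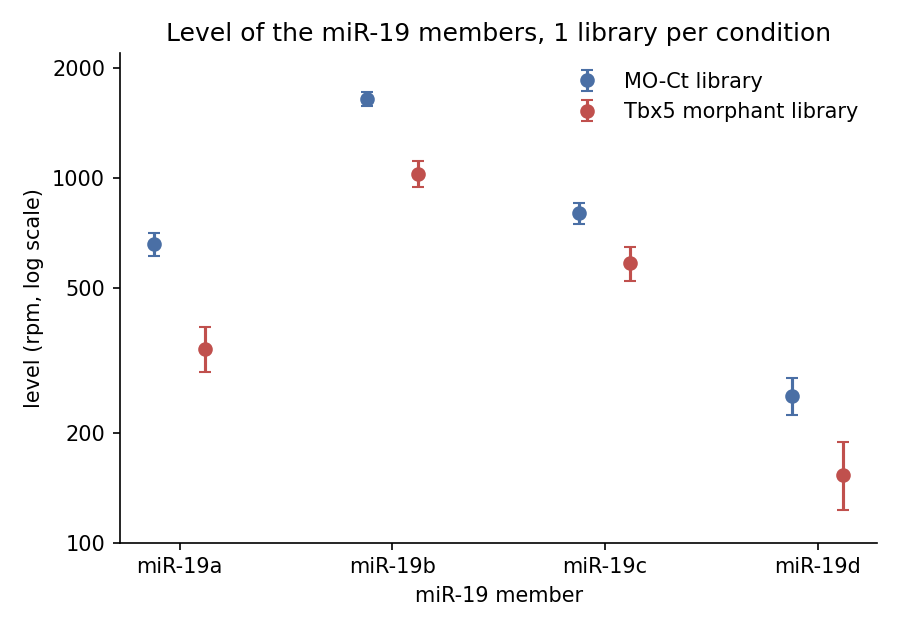
Level of each miR-19 member in rpm (log scale) in the MO-Ct library (blue) and the Tbx5 morphant library (red), 1 library per condition; bars are 95% Poisson intervals of the reads. The order miR-19b, miR-19c, miR-19a, miR-19d is the same in both libraries, and each red point lies below its blue partner, from 339 against 658 rpm for miR-19a to 582 against 799 rpm for miR-19c.

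The members ranked in the same order in both libraries, miR-19b above miR-19c, miR-19c above miR-19a and miR-19a above miR-19d, and no neighbours in this order had overlapping intervals within a library. The distances between them differed. miR-19c had 1.21 times the rpm of miR-19a in the MO-Ct library and 1.72 times in the morphant library, whereas miR-19b had 6.52 and 6.70 times the rpm of miR-19d. miR-19b had 2.50 times the rpm of miR-19a in the MO-Ct library and 3.03 times in the morphant library, although both are processed from the same cluster. Among all 173 entries ordered by rpm, miR-19b was at rank 54 in the MO-Ct library and 66 in the morphant library, miR-19c at 72 and 80, miR-19a at 81 and 92, and miR-19d at 109 and 118. All 4 members thus stood lower in the order of miRNAs in the morphant library, a comparison that does not depend on a common scaling of the rpm. Other miRNAs stood lower there too, and the share of all entries that did so was not counted. Of the 116 miRNAs above 200 rpm in the MO-Ct library, 69% had a FC below 1.

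Of the 1251 rpm by which the family total was lower, miR-19b made up 49.3%, miR-19a 25.5%, miR-19c 17.3% and miR-19d 7.89%. miR-19b therefore contributed the most to the difference in the family, while miR-19a was lower by the largest factor. The pair of the miR-17-92 cluster together had 1367 rpm against 2302 rpm and a FC of 0.594 (0.548 to 0.643). The members of the other clusters, miR-19c and miR-19d, together had 736 rpm against 1051 rpm and a FC of 0.700 (0.625 to 0.782).

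The make-up of the family differed only modestly between the libraries. miR-19a took 19.6% of the family reads in the MO-Ct library (95% Clopper-Pearson interval 18.4% to 20.9%) and 16.1% in the morphant library (14.1% to 18.3%). Its share was lower by a margin just beyond the counting error of each. miR-19c took 23.8% (22.5% to 25.2%) in the MO-Ct library and 27.7% (25.2% to 30.3%) in the morphant library, intervals that meet at their ends. Compared directly, its FC was 1.23 times that of the other members together (exact conditional 95% interval 1.06 to 1.42). For miR-19a this ratio was 0.789 (0.660 to 0.939). miR-19b took 49.0% (47.4% to 50.6%) and 48.9% (46.0% to 51.7%), and miR-19d took 7.52% (6.71% to 8.40%) and 7.30% (5.90% to 8.90%), so no difference in these shares was detectable at this depth. By cluster of origin, the miR-17-92 pair supplied 68.7% (67.2% to 70.1%) of the family reads in the MO-Ct library and 65.0% (62.2% to 67.7%) in the morphant library.

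**Figure D2:**
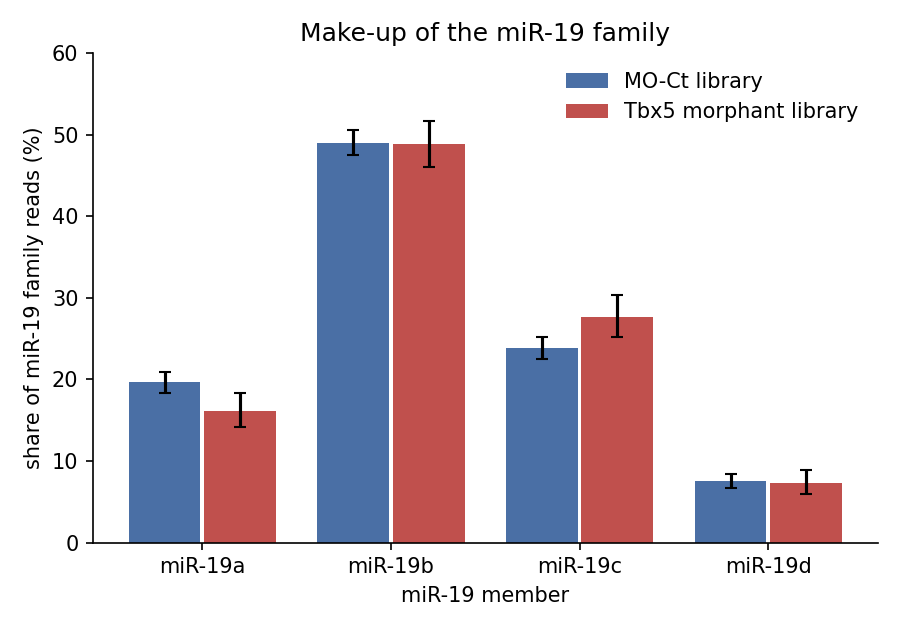
Share of the miR-19 family reads taken by each member (%, axis from 0) in the MO-Ct library (blue) and the Tbx5 morphant library (red); bars are 95% Clopper-Pearson intervals. miR-19b holds close to the same share in both (49.0% and 48.9%), miR-19a a smaller share in the morphants (16.1% against 19.6%) and miR-19c a larger one (27.7% against 23.8%).

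The FC of the members were compared in all 6 pairs by their ratio with an exact conditional 95% interval, not adjusted over the pairs. The interval excluded 1 in 2 pairs. The FC of miR-19a was 0.708 times that of miR-19c (0.576 to 0.868) and 0.826 times that of miR-19b (0.685 to 0.993), the latter close to 1 at its upper end. The other 4 pairs had intervals that included 1. These were miR-19a over miR-19d at 0.848 (0.633 to 1.14), miR-19b over miR-19c at 0.857 (0.732 to 1.00), miR-19b over miR-19d at 1.03 (0.792 to 1.34) and miR-19c over miR-19d at 1.20 (0.911 to 1.59). An interval that includes 1 does not show that the members of such a pair were equally lower, and those with miR-19d reach far on either side. The FC of the miR-17-92 pair was 0.848 times that of miR-19c and miR-19d pooled (0.739 to 0.974). The latter lie in different clusters, and miR-19c gave 919 of their 1209 MO-Ct reads. Neither miR-19a nor miR-19b had a ratio to miR-19d whose interval excluded 1. The authors' annotation allowed 2 mismatches, so a read may have been given to a close relative of the miRNA it came from. The study's mimics of miR-19a and miR-19b differ at 1 base of the antisense strand, which is within that limit. The part of such misassignment in the levels of the members and the differences between them was not tested.

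Most miRNAs were somewhat lower in the morphant library, so the members were read against that background. Of the 116 miRNAs above 200 rpm in the MO-Ct library, 69% had a FC below 1, and all 4 members did. The 95% interval of the FC lay below 1 in 53.4% of these miRNAs and in all 4 members. The 116 were chosen by the MO-Ct level alone, the denominator of the FC, which favours a low FC. miR-19d passed only through that library, with 252 rpm there and 153 rpm in the morphant library. Over the 107 miRNAs with more than 200 rpm in each library, which leave out miR-19d, the median FC was 0.910, or -0.14 on the log2 scale. The median of the 4 members was 0.616, or -0.70. The interval lay entirely below 0.910 in 39.7% of the 116 miRNAs and in all 4 members. A FC at least 1.8-fold lower, the threshold of the study, was met by 6.03% of the 116 miRNAs and by 1 member, miR-19a. A FC at least 1.5-fold lower was met by 13.8% and by 3 members, miR-19a, miR-19b and miR-19d. Ordered from the lowest FC among the 116, miR-19a was at place 5, miR-19d at place 9, miR-19b at place 10 and miR-19c at place 32. The scaling decided the 1.8-fold call: with every FC divided by the median of 0.910, miR-19a had 0.567, and 0 members were past it.

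**Figure D3:**
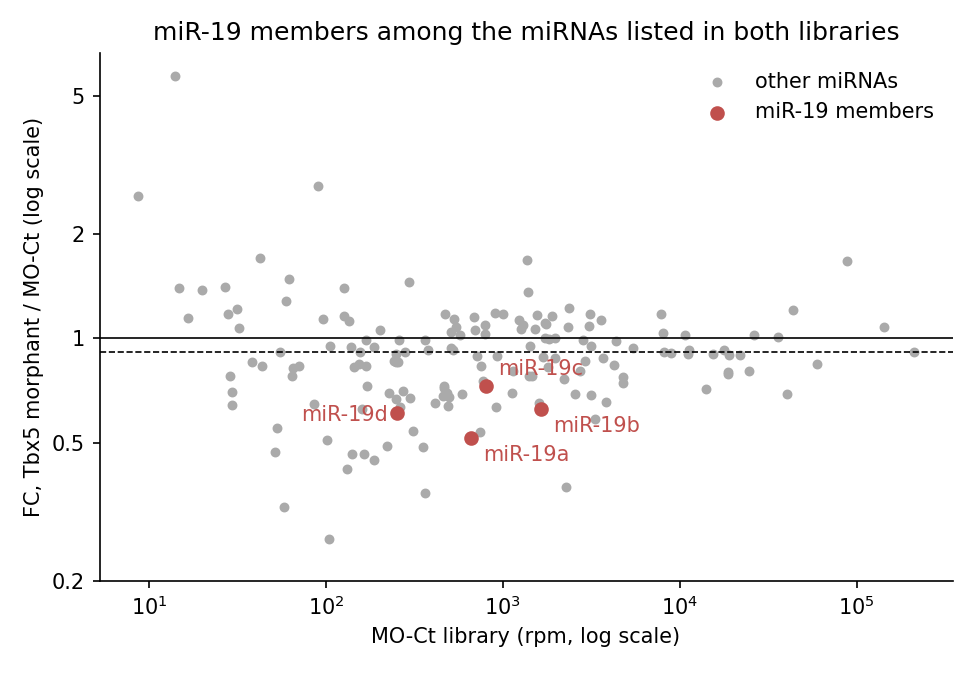
FC of each miRNA listed above 0 in both libraries (log scale) against its rpm in the MO-Ct library (log scale); miR-19 members are red and all others grey, with a solid line at a FC of 1 and a dashed line at the median of 0.910. The 4 members lie below both lines, at FC of 0.516 to 0.729.

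Most miRNAs of a similar level had a higher FC than the members. The 52 other miRNAs with MO-Ct levels between those of miR-19d and miR-19b had a median FC of 0.899, and 33 of them had a FC below 1. Of these 52, 4 had a FC at or below that of miR-19b and 18 a FC at or below that of miR-19c, so the FC of miR-19c was not unusual at its level. Each member was also set beside the miRNAs next above and next below it in MO-Ct rpm. All 8 of these neighbours had a higher FC than their member, and the interval of 4 of them lay entirely above that of the member. The members were at places 5, 9, 10 and 32 of 116 from the lowest FC. Most neighbours would thus be higher in any case, so this count adds no separate support. miR-19c, for example, stood between miR-128, with a FC of 1.18 (1.07 to 1.30), and miR-456, with 1.03 (0.920 to 1.15). miR-19b stood just above miR-18a, its cluster mate, which had nearly the same level, 1039 rpm against 1598 rpm, and a FC of 0.650 (0.592 to 0.713). miR-19a stood between miR-196b, with 1.15 (1.02 to 1.29), and miR-26b, with 0.692 (0.594 to 0.803). miR-19d stood between miR-218b, with 0.853 (0.687 to 1.05), and miR-16a, with 0.668 (0.525 to 0.843). Among the 104 other miRNAs with more than 200 rpm in each library, those nearest to the family in log2 FC were miR-130c at 0.633 (0.558 to 0.716), miR-133b at 0.640 (0.538 to 0.757) and miR-18a. This likeness is over 2 libraries only.

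The miR-19 members were next compared with the miRNAs transcribed beside them, which belong to other seed families. The 3 clusters held 13 entries in all, 4 of miR-19 and 9 others. As deposited, all 13 had a FC below 1, although miR-92a, miR-20b and miR-93 were above 1 once every FC was divided by the median of 0.910. The interval lay below 1 in 11 of the 13, all 4 members included, against 45.7% of the 162 miRNAs with a value above 0 in each library. All 13 were above 200 rpm in the MO-Ct library, and of the 116 miRNAs above that level the share was 53.4%. As deposited, miR-19a, miR-19d and miR-19b had the 3 lowest FC of the 13, and miR-19c was at place 7. Centred on the 40 miRNAs nearest in rpm, miR-19d had 0.726, above miR-18a at 0.653 and miR-363 at 0.691. The entries of miR-17a and miR-92a join the loci of the miR-17-92 cluster with those of its paralog, so their values belong to both.

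In the miR-17-92 cluster miR-19a and miR-19b had the lowest FC. miR-18a, of the miR-18 family, followed with the value given above. miR-20a, the most abundant cluster member in the controls and of the miR-17 family, had 10070 rpm against 14116 rpm and a FC of 0.713 (0.692 to 0.735). miR-17a had 3707 rpm against 4809 rpm and a FC of 0.771 (0.733 to 0.810), and miR-92a, of the miR-25 family, had 10386 rpm against 11258 rpm and a FC of 0.923 (0.895 to 0.951). miR-92a exceeded the median of 0.910 and had a FC above 1 after each of the 4 rescalings. The ratio of FC of miR-19a to each of the other 4 miRNAs ran from 0.559 (0.474 to 0.657) for miR-92a to 0.793 (0.658 to 0.954) for miR-18a, with every interval below 1. For miR-19b it ran from 0.677 (0.613 to 0.747) for miR-92a to 0.961 (0.842 to 1.10) for miR-18a, and only the interval for miR-18a included 1. Together miR-19a and miR-19b took 6.75% (6.51% to 7.01%) of the cluster reads in the MO-Ct library and 5.14% (4.80% to 5.50%) in the morphant library.

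In the miR-363 cluster miR-19c did not stand apart. miR-363, of the miR-25 family, had the lowest FC, 0.655 (0.617 to 0.695), with 2526 rpm against 3857 rpm. miR-18c had 3555 rpm against 4787 rpm and a FC of 0.743 (0.706 to 0.781), and miR-20b had 3012 rpm against 3172 rpm and a FC of 0.9497 (0.897 to 1.01). The FC of miR-19c was 1.11 times that of miR-363 (0.966 to 1.28) and 0.982 times that of miR-18c (0.855 to 1.12), both intervals including 1, and 0.768 times that of miR-20b (0.667 to 0.882). The share of miR-19c in the cluster was 6.33% (5.94% to 6.74%) in the MO-Ct library and 6.02% (5.41% to 6.67%) in the morphant library, a difference not detectable at this depth.

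In the cluster within mcm7, miR-19d had the lowest FC although its neighbours were many times more abundant. miR-25 had 2213 rpm against 2748 rpm and a FC of 0.805 (0.754 to 0.859). miR-93, of the miR-17 family, had 4282 rpm against 4368 rpm and a FC of 0.980 (0.934 to 1.03). The FC of miR-19d was 0.756 times that of miR-25 (0.584 to 0.970) and 0.620 times that of miR-93 (0.481 to 0.794). miR-19d took 3.42% (3.04% to 3.83%) of the cluster reads in the MO-Ct library and 2.31% (1.86% to 2.83%) in the morphant library.

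**Figure D4:**
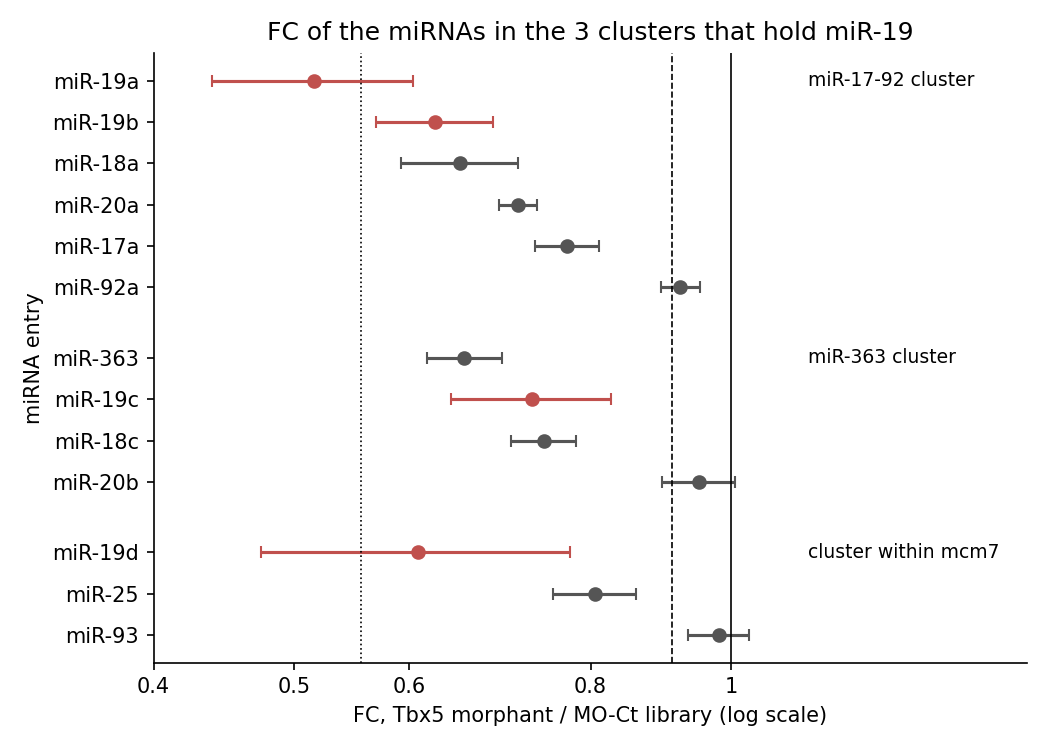
FC (log scale) with 95% counting intervals of the 13 miRNA entries in the 3 clusters that hold miR-19, with miR-19 members in red; lines mark a FC of 1 (solid), the median of 0.910 (dashed) and the 1.8-fold threshold (dotted). miR-19a and miR-19b are the lowest of the miR-17-92 cluster and miR-19d the lowest within mcm7, whereas miR-363 lies below miR-19c.

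Of the 13 ratios of FC between a miR-19 member and a miRNA of another family in its own cluster, 10 had an interval below 1 and 3 included 1. Each member enters more than 1 ratio, so the 13 are not independent. Among the 10 are the ratios of miR-19a and miR-19b to miR-17a and to miR-92a, whose values also count reads of a paralogous locus. How often such an interval excludes 1 between other miRNAs was not tested. Pooled by cluster, the FC of miR-19 was 0.748 times that of the other miRNAs in the miR-17-92 cluster (0.689 to 0.813), 0.666 times within mcm7 (0.518 to 0.851) and 0.947 times in the miR-363 cluster (0.830 to 1.08). The others of miR-17-92 had a pooled FC of 0.793 (0.778 to 0.808) with the joined entries. Without these it was 0.707 (0.687 to 0.727), nearer to the 0.594 (0.548 to 0.643) of miR-19a and miR-19b. The median log2 FC was -0.55 over the miR-17-92 cluster, -0.44 over the miR-363 cluster and -0.31 over the cluster within mcm7. With miR-19 left out, that of the mcm7 cluster was -0.17.

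Summed by seed family over these clusters and their paralogs, miR-19 had the lowest FC of the 4 families. The miR-18 family (miR-18a, miR-18b and miR-18c) had 4761 rpm against 6649 rpm and a FC of 0.716 (0.685 to 0.748). The family of miR-17a, miR-20a, miR-20b and miR-93 had 21071 rpm against 26465 rpm and a FC of 0.796 (0.780 to 0.813). The family of miR-25, miR-92a, miR-92b and miR-363 had 16955 rpm against 19432 rpm and a FC of 0.873 (0.852 to 0.893). The FC of miR-19 was 0.875 times that of the miR-18 family (0.809 to 0.947), 0.787 times that of the miR-17 family (0.735 to 0.843) and 0.719 times that of the miR-25 family (0.670 to 0.770). These ratios are unchanged by a scaling common to all miRNAs of a library. miR-19 was also the least abundant of the 4 families in both libraries, and whether level has a part in the order of the families was not tested.

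**Figure D5:**
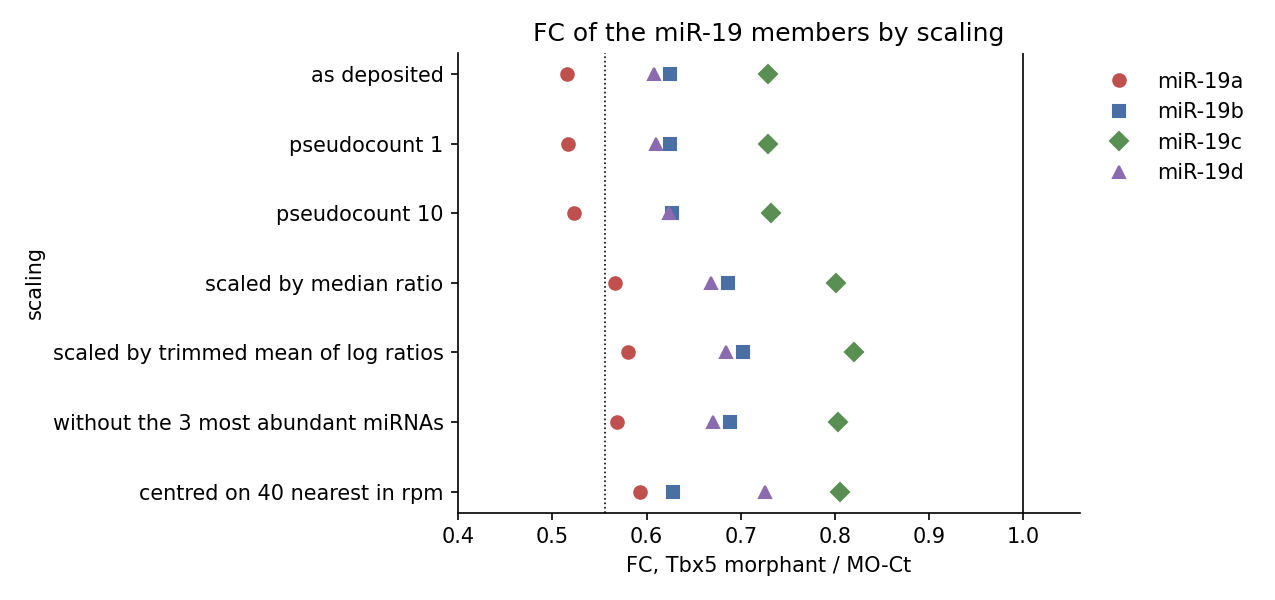
FC of the miR-19 members as deposited, with a pseudocount of 1 or 10 rpm and under 4 rescalings (the median ratio, a trimmed mean of log ratios, leaving out the 3 most abundant miRNAs, and centring on the 40 miRNAs nearest in rpm); lines mark a FC of 1 (solid) and the 1.8-fold threshold (dotted). All points lie below 1, and miR-19a moves from 0.516 to between 0.567 and 0.593 under the rescalings, across the threshold. Centring on neighbours in rpm moves miR-19d from 0.608 to 0.726, above miR-19b at 0.628.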

How the data were processed

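Small RNA libraries of whole embryos, 1 per condition, were sequenced on an Illumina GAIIx. Per the supplementary methods the authors trimmed the adaptor, collapsed reads 18 to 33 nt long to unique sequences, kept those with at least 30 occurrences, annotated them to the zebrafish reference of miRBase (at most 2 mismatches and at most 2 additional bases at each end) and scaled them to rpm. The deposited rpm values name hairpins, so the arm of each hairpin was not used. In the recovered reads, 19 miRNAs listed above 0 in the morphants and 14 in the controls had fewer than 30 reads.

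The reads behind the rpm were recovered as the smallest total, from 50000 to 3000000, for which all 173 values of a library were whole reads within 0.005 rpm and summed to the total. FC intervals and shares are exact Clopper-Pearson, levels are exact Poisson, and ratios of FC are exact conditional intervals. Alternatives were a pseudocount of 1 or 10 rpm, the median ratio (0.910), a trimmed mean of the log ratios of 61 miRNAs (each end trimmed by 30% for log ratios and 5% for levels), rpm without the 3 most abundant miRNAs, centring on the 40 miRNAs of most similar rpm, other minimum levels and folds, and clusters without miR-19 or joined entries. The miRNAs named are the members, the others of their clusters, their neighbours in MO-Ct rpm and the 3 nearest in log2 FC; members and lists were chosen with earlier results of these data known. Steps were tested on simulated data. Gene order came from the RefSeq genes of GRCz12tu, to which 291 of 312 named loci matched; the values carry no coordinates. Software was SciPy 1.17.1, NumPy 2.4.6, Matplotlib 3.10.9 and pandas 2.3.3 under Python 3.11.15.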

Additional observations from a re-analysis of the deposited data

How the results depend on the processing

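No paired analysis was possible because there was only 1 library in each condition, and no replicate could be left out. A pseudocount cannot move a FC across 1. The median ratio (0.910), the trimmed mean (0.889) and leaving out the 3 most abundant miRNAs each change every FC by the same factor. Factors of that size leave even the highest member FC, 0.729, below 1, and only the centring on neighbours in rpm differs between members. With that limit, the FC of the 4 members and of the family stayed below 1 in all 30 alternatives, 24 within the counting interval. Outside it, miR-19b had 0.687 after scaling by the median ratio, 0.703 after scaling by the trimmed mean and 0.688 when the 3 most abundant miRNAs were left out, and the family 0.689, 0.705 and 0.691. miR-92a reversed, to 1.01, 1.04 and 1.02 under these and 1.02 when centred on neighbours in rpm. Under the first 3 the median log2 FC was -0.42, -0.38 and -0.41 for the miR-17-92 cluster, -0.31, -0.27 and -0.30 for the miR-363 cluster, and -0.18, -0.14 and -0.17 for the mcm7 cluster. As deposited but without miR-19, the median was -0.43 for miR-17-92 and -0.17 for mcm7. With miR-19 kept and only the joined entries left out, it was -0.65 for miR-17-92. Within miR-19a and miR-19b only, miR-19a took 24.8% in the morphant and 28.6% in the MO-Ct library, and miR-19b 75.2% and 71.4%, by construction above the shares in the family. Of the 116 miRNAs above 200 rpm in the MO-Ct library, 16 (13.8%) were lower past 1.5-fold, 3 of them members. Among these 3, miR-19d passed 200 rpm only in the MO-Ct library, and 1.5-fold was not counted with 200 rpm in both. Past 2-fold there were 4 of the 116, and past 1.8-fold with the median or trimmed scaling also 4, with 0 members. At 1.8-fold as deposited there were 7 of the 116 (6.03%), with 1 member. With no minimum rpm there were 27 of all 173 entries, with 1 member. The 27 include the 11 entries at 0 in the morphant library, which was the less deep. With 200 rpm in both libraries there were 3 of 107, and with 200 rpm in the morphant library also 3, each with 1 member. Except where the construction shows it, the cause was not tested.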
